A study of Mus musculus and Homo sapiens with 12 samples.

Results

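The genes of the mitochondrial DNA were examined in 12 libraries of polyadenylated RNA from blood progenitors with and without DDX21, a nuclear RNA helicase of the nucleolus. Members were all genes that the deposited count tables place on the mitochondrial chromosome, which gave 37 of 55487 mouse genes and 37 of 78932 human genes, in each case 2 rRNAs, 22 tRNAs and 13 mRNAs. The mouse libraries came from lineage-negative, Kit-positive (LK) cells sorted from fetal liver at embryonic day E13.5. All 6 carried loxP-flanked Ddx21 (Ddx21f/f). The 3 controls (WT) had no listed Cre, and the 3 knockout libraries (Ddx21-cKO) also carried Vav1-Cre, which is active in blood cells, so that Cre itself and the deletion cannot be told apart. The human libraries came from blood stem cell-like cells made from the embryonic stem cell line H1, transduced with lentivirus for a control hairpin (shNC, 3 libraries) or a hairpin against DDX21 (shDDX21, 3 libraries), both with mCherry, and sorted 2 days later as CD34+, CD45+, CD43+ and hairpin-positive cells. The human groups rest on 1 cell line and on 1 label for the hairpin against DDX21. Nothing in the labels says whether replicates were separate embryos or cultures, so p-values measure the spread between these libraries, which may be technical.

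Mitochondria keep a small circular genome whose strands are each transcribed as long precursor RNAs. The tRNAs lie between the other genes, and cutting them out releases the rRNAs and mRNAs, most of which then receive short poly(A) tails. The 13 mRNAs encode core subunits of respiratory complexes I, III and IV and of ATP synthase, the 2 rRNAs build the mitochondrial ribosome, and the tRNAs serve translation inside the organelle. All other proteins of the respiratory chain, and all enzymes that copy, transcribe and process this genome, come from nuclear genes. Poly(A) selection keeps rRNAs, tRNAs and any mRNA without such a tail only in part, so counts of these are not their amount in the cell. In sorted populations, fewer cells of a type and less RNA per cell cannot be told apart.

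Some mouse members have near-identical copies in the nuclear DNA, and these sequences are shown first because reads of a gene and its copy may not be separable. Of the 37 mouse members, 7 matched an annotated transcript outside the mitochondrial DNA at 99% identity or more over at least 60 bases, all on GRCm38 chromosome 1 (GENCODE M21). Only annotated transcripts were searched, so a copy in other nuclear DNA would have been missed. mt-Co2 matched Gm28661 over 681 bases with 0 mismatches, and mt-Nd3 matched Gm28438 over 345 bases with 1, T3C, where T is the third base of mt-Nd3 counted from its 5′ end. The opening 51 bases of both pairs are shown because a short read from either gene of a pair could come from the other. The stretches are MT:7013-7063 and MT:9459-9509, plus strand, and chr1:24615515-24615565 and chr1:24613069-24613119, minus strand. Capitals mark the only difference.
mt-Co2: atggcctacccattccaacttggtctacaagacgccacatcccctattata
Gm28661: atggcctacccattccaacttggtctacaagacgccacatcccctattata
mt-Nd3: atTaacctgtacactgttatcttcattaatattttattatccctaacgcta
Gm28438: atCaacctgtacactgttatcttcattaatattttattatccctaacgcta

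The stretch from mt-Co2 to mt-Nd4l was nearly empty in the mouse tables. mt-Co2, which encodes a catalytic subunit of complex IV, had 131 to 188 counts per library, against 150489 to 204472 for its neighbour mt-Co1. The 6 genes from mt-Co2 to mt-Nd4l held 0.38% ± 0.0225 (SD, n = 3) of the mRNA counts in WT, while the same 6 genes held 31.8% ± 0.352 (SD, n = 3) in human shNC. mt-Atp6, mt-Co3 and mt-Nd4l were also identical to their copies over at least 98.99% of their length, and mt-Atp8 lies between copied genes with 8 to 22 counts. The tRNA genes mt-Tg and mt-Tr also lie between copied genes. mt-Nd4 shared 63.6% of its length and mt-Co1 31.3%. Values of these genes are uncertain, since the treatment of reads that fit several places is not given in the sources used here, and its part in the low counts was not tested.

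**Figure D1:**
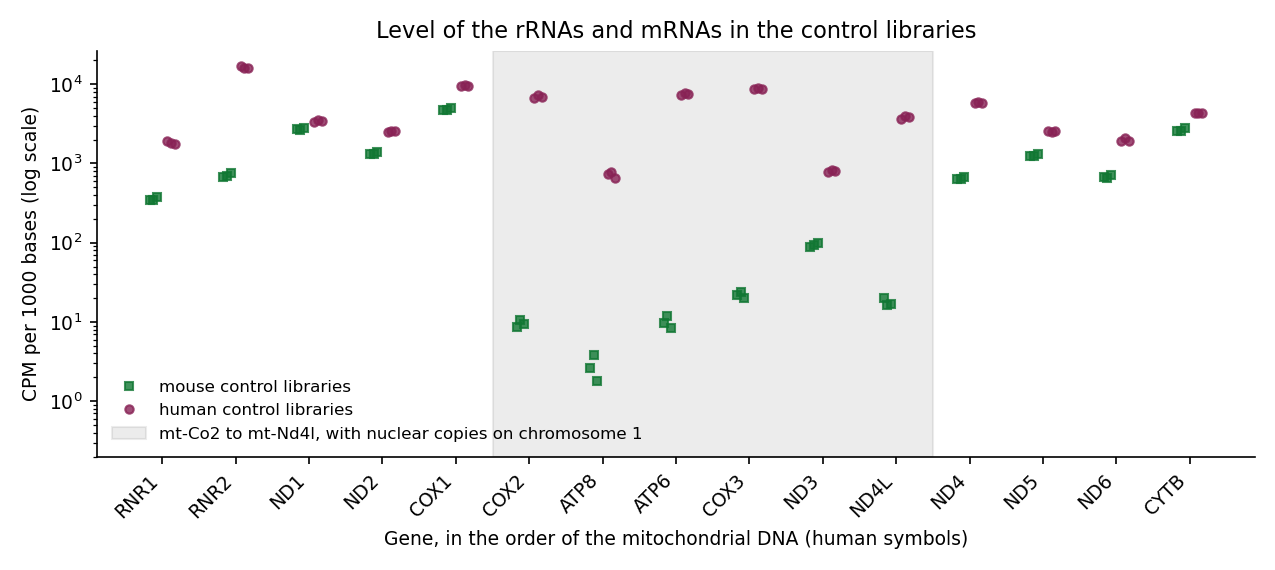
CPM per 1000 bases (log scale) for the 2 rRNAs and 13 mRNAs in gene order, 1 point for each of the 3 WT mouse libraries (squares) and 3 shNC human libraries (circles). The mouse genes in the shaded stretch from mt-Co2 to mt-Nd4l lie far below their neighbours, and the human genes there do not.

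Neighbouring genes also share bases. mt-Atp8 (MT:7766-7969, plus strand) ends inside mt-Atp6, a shared stretch of 43 bases that is 21.1% of mt-Atp8, and it is printed whole with the shared bases in capitals because counts of the 2 genes are not independent there.
mt-Atp8: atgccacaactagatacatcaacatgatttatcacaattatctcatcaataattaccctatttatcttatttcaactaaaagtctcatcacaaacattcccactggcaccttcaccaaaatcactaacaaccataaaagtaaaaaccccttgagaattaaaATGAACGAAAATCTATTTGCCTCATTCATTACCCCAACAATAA
mt-Nd4l overlaps mt-Nd4 by 7 bases, and mt-Nd5 overlaps mt-Nd6, on the other strand, by 14. Both ATP8 with ATP6 and ND4L with ND4 are carried on shared mRNAs. In 10 of the 13 mouse mRNAs the annotated gene ends in a complete stop codon. mt-Co3 (last bases at MT:9373-9390), mt-Nd4 (MT:11527-11544) and mt-Cytb (MT:15271-15288) end in a lone T, in capitals here, and in such genes the poly(A) tail supplies the rest of the stop codon.
mt-Co3: tttattgatgaggatctT
mt-Nd4: ttacaggcctgacaataT
mt-Cytb: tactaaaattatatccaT

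Mouse libraries held 21116079 to 23898130 counts, of which 396543 to 501647 were mitochondrial, and human libraries held 15289510 to 19798608, with 1322548 to 2252243. Ddx21 stood at 19.7% of WT in cKO and DDX21 at 14.5% of shNC in shDDX21. Spread differed between the experiments: edgeR's common coefficient of variation was 10.5% in mouse and 2.23% in human. Of 8 progenitor markers, all were detected in both. Their sum went from 2742 to 2787 CPM in shNC to 2915 to 2955 in shDDX21. In mouse it went from 1707 to 1747 CPM in WT to 1767 to 1781 in cKO. Single markers moved both ways (edgeR adjusted p under 0.05), 4 higher and 4 lower in human and 2 higher and 3 lower in mouse. These and the marker counts below stand beside 25.3% higher and 27.4% lower of all human genes tested, and 20.7% and 15.8% in mouse. Levels of other cell types' markers also moved with the groups. The summed granulocyte and mast cell markers (5 of 12 found in the human table) went from 178 to 189 CPM in shNC to 37.6 to 42.4 in shDDX21, and the erythroid markers (9 of 12 found) from 649.9 to 669 to 799.8 to 819. In mouse the hepatocyte markers (11 of 12 found) went from 5.19 to 6.42 CPM in WT to 37.4 to 40.6 in cKO, the macrophage markers (12 of 12, C1qc at 0 throughout) from 37.8 to 40.9 to 14.5 to 17.3, and the granulocyte and mast cell markers (12 of 12) from 651 to 907 to 356 to 593. That sum hides opposite changes, since of the 9 tested 4 were lower and 3 higher, among them Ltf (log2 fold change 4.03) and Cpa3 (0.70). Of the 4 mouse macrophage markers tested, 2 were lower and 1, Cd68 (0.33), was higher. The endothelial markers went from 101 to 124 CPM in WT to 138 to 168 in cKO and from 1851 to 1902 in shNC to 1612 to 1635 in shDDX21. Of those tested, 5 of 9 were higher and 0 lower in mouse, and 4 of 11 were higher and 6 lower in human. The markers of undifferentiated stem cells (8 of 8 found in mouse, Sox2 and Zfp42 at 0) went from 137 to 150.3 CPM to 205 to 234 in mouse and (4 of 8 found) from 438 to 461 to 412 to 428 in human. The mouse sum was mostly Dnmt3b (mean 140 CPM in WT and 216 in cKO), and 5 of the 8 had at most 3 counts in every library. In human 1 was higher (LIN28A, log2 fold change 0.41) and 2 lower (DNMT3B, −0.65, and ZFP42, −1.23). The human hepatocyte markers (2 of 12 found) went from 8.46 to 10.4 to 5.37 to 5.62, and the mouse erythroid and human macrophage sums overlapped. Single markers within these overlapping sums still moved. Of 10 mouse erythroid markers tested, 4 were higher and 4 lower. Of 6 human macrophage markers tested, 1 was higher and 4 were lower. The part of these cells in the results below was not tested.

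The mitochondrial share of all counts differed between the human groups and overlapped between the mouse groups. In human cells it was 8.62, 8.65 and 8.59% in the 3 shNC libraries and 11.4, 11.2 and 11.2% in the 3 shDDX21 libraries. Every shDDX21 library lay above every shNC library, with means of 8.62 ± 0.0306% and 11.3 ± 0.104% (SD, n = 3 each), a difference of 2.64 percentage points (exact two-sided permutation p = 0.1, the smallest that 3 against 3 allows). The mRNAs went from 5.84 ± 0.0823% to 7.53 ± 0.0557%, the rRNAs from 2.75 ± 0.068% to 3.7 ± 0.0528%, and the tRNAs from 0.0248 ± 0.000699% to 0.0336 ± 0.00347% (SD, n = 3). In mouse LK cells the share was 1.86, 1.88 and 2.04% in WT and 1.86, 2.1 and 1.97% in cKO. The mouse groups overlapped, with means of 1.93 ± 0.0988% and 1.98 ± 0.12% (SD, n = 3, exact two-sided permutation p = 0.6). The mouse tRNAs alone lay apart, with 0.00851 to 0.00976% of all counts in WT and 0.00705 to 0.0082% in cKO (exact two-sided permutation p = 0.1), while the shares of mRNAs and rRNAs overlapped. Within the mouse mitochondrial counts, rRNAs took 7.24 to 7.58% in WT and 6.3 to 6.5% in cKO, with no overlap (exact two-sided permutation p = 0.1), and the share of mRNAs, nearly its complement, took 91.9 to 92.3% and 93.1 to 93.3%.

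**Figure D2:**
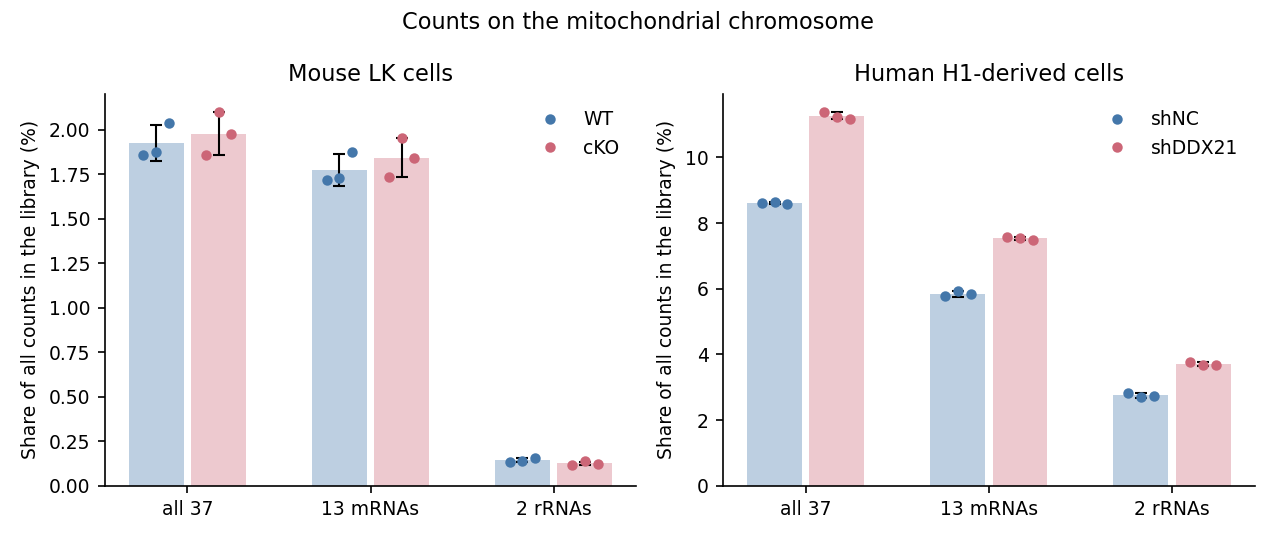
Share of all counts of a library (%) on the 37 mitochondrial genes, the 13 mRNAs and the 2 rRNAs, in mouse LK cells (left) and human H1-derived cells (right, another scale); bars are means, error bars SD, points the 3 libraries of a group. The human groups lie apart in all 3 classes, from 8.59 to 8.65% to 11.2 to 11.4% for all 37 genes, and the mouse groups overlap.

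All 13 human mitochondrial mRNAs rose on knockdown of DDX21. Calls were made by edgeR's quasi-likelihood test on TMM-scaled counts, where the adjusted p (Benjamini-Hochberg over all genes tested) was under 0.05, and levels are given as CPM on that scale. By this rule 22 of the 30 human members that passed the filter on low counts were higher and 1 was lower, where 52.7% of all genes tested were called, 25.3% higher and 27.4% lower. The median log2 fold change of the 13 mRNAs was 0.42, from 0.27 for ATP6 to 0.59 for ND3, beside 0.01 over all 20188 genes tested. In each of the 13 the lowest shDDX21 library lay above the highest shNC library, as did those of 27.9% of all genes tested.

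Complex I, which takes electrons from NADH, has 7 mitochondrial subunits in its membrane arm. ND3 (ENSG00000198840) had 274, 289.8 and 281 CPM in shNC and 458, 444 and 371 in shDDX21 (log2 fold change 0.59, SE 0.033, adjusted p 7.58e-26). Its 3 shDDX21 libraries stood well above the controls, and the third was the lowest of them. ND4L (ENSG00000212907) had 1094, 1179.7 and 1137 CPM in shNC and 1784, 1734 and 1574 in shDDX21 (log2 fold change 0.58, SE 0.024, adjusted p 2.08e-33). ND4 rose by 0.42, ND6 by 0.42, ND5 by 0.38, ND1 by 0.37 and ND2 by 0.28 on the log2 scale. ND6 is the only mRNA read from the other strand. Its counts per base stood at 0.774 ± 0.0448 of those of ND5 in shNC and 0.797 ± 0.0345 in shDDX21, with overlapping groups (SD, n = 3).

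CYTB (ENSG00000198727), the mitochondrial subunit of complex III, had 4922, 4925 and 4943 CPM in shNC and 6992, 6727 and 6833 in shDDX21 (log2 fold change 0.47, SE 0.016, adjusted p 1.71e-38). The lowest shDDX21 library was far above the 3 shNC libraries, which nearly coincided. COX1 (ENSG00000198804), the catalytic core of complex IV, had 14669, 15032 and 14501 CPM in shNC and 19904, 19605 and 19688 in shDDX21 (log2 fold change 0.42, SE 0.015, adjusted p 4.87e-38). COX3 rose by 0.41 and COX2, which takes electrons from cytochrome c, by 0.33. Of the ATP synthase subunits, ATP6 (ENSG00000198899), part of the proton channel, had 4942, 5282 and 5182 CPM in shNC and 6201, 6278 and 6086 in shDDX21 (log2 fold change 0.27, SE 0.017, adjusted p 8.28e-23). ATP8 (ENSG00000228253), a small peripheral subunit, had 151, 161 and 135 CPM in shNC and 225, 237 and 180.4 in shDDX21 (log2 fold change 0.53, SE 0.044, adjusted p 3.5e-17). The third shDDX21 library was again the lowest for ATP8 but lay above all 3 controls. Although ATP8 and ATP6 share an mRNA, their ratio of counts per base was 0.0955 ± 0.00854 in shNC and 0.114 ± 0.0143 in shDDX21, with overlapping groups (SD, n = 3, exact two-sided permutation p = 0.3).

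Gene length moved with the human changes. The 3 mRNAs under 500 bases, ATP8, ND3 and ND4L, had a median log2 fold change of 0.58, the 5 from 500 to under 1000 bases 0.37, and the 5 from 1000 to under 2000 bases 0.42. Among nuclear genes the same medians were 0.15 (1004 genes), 0.19 (1494 genes) and 0.11 (2248 genes), and −0.03 over the 15412 genes of 2000 bases or more. After a curve on gene length was removed from each library, a setting chosen after seeing the data, all 13 mRNAs were still called higher, with a median of 0.29, and 18 members were higher and 2 lower. The part of gene length in the result was not tested further.

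**Figure D3:**
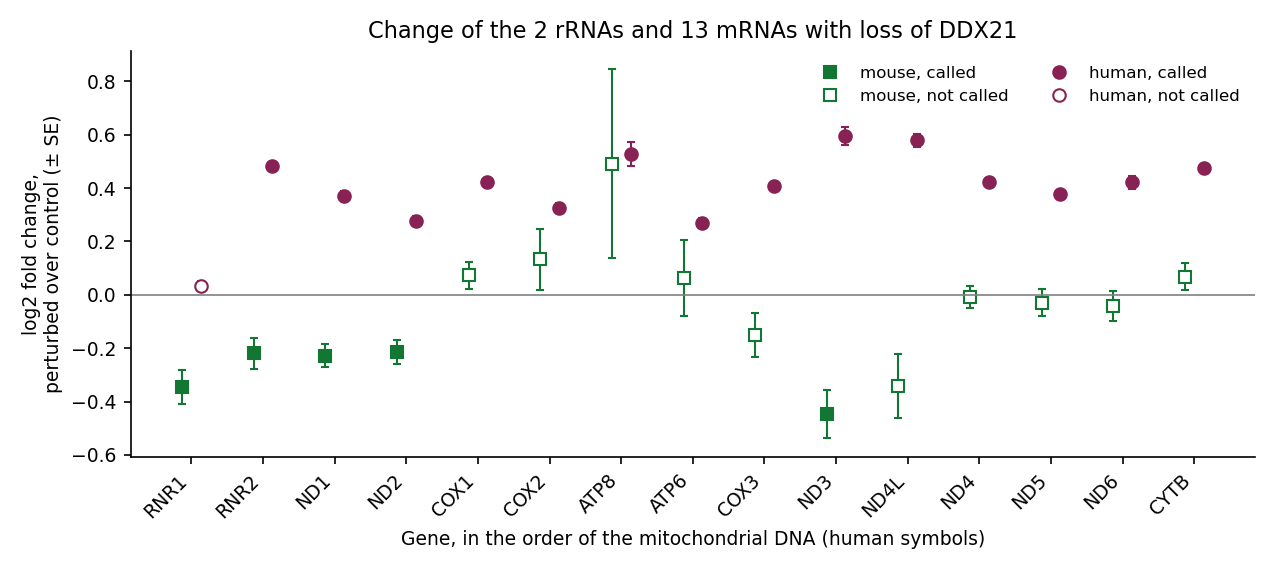
log2 fold change (± SE, edgeR) of the 2 rRNAs and 13 mRNAs in the order of the mitochondrial DNA, mouse cKO over WT (squares) and human shDDX21 over shNC (circles); filled symbols are called. All 13 human mRNAs lie between 0.27 and 0.59, and in mouse RNR1 to ND2 lie between −0.34 and −0.21.

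The 2 human rRNAs did not move alike. The human table carries no symbols for rRNAs and tRNAs, so they are named here by their place among the 13 mRNAs, which follow the mouse order. RNR2 (ENSG00000210082; MT:1671-3229, plus strand), the large-subunit rRNA and the most abundant member per length at 16352 ± 380.3 CPM per 1000 bases (SD, n = 3), had 26164, 25043 and 25271 CPM in shNC and 36269, 35266 and 35194 in shDDX21 (log2 fold change 0.48, SE 0.014, adjusted p 1e-41). RNR1 (ENSG00000211459; MT:648-1601, plus strand), the small-subunit rRNA, had 1815, 1756 and 1686 CPM in shNC and 1824, 1782 and 1777 in shDDX21 (log2 fold change 0.03, SE 0.019, adjusted p 0.138), and its groups overlapped. Its direction depended on scaling, as it was called higher with upper-quartile factors (0.10) or without shNC replicate 1 (0.06) and lower with the gene-length curve (−0.11). The ratio within a library does not depend on scaling: RNR2 had 14.4, 14.3 and 15 counts for each RNR1 count in shNC and 19.9, 19.8 and 19.8 in shDDX21, with no overlap (exact two-sided permutation p = 0.1). The mouse ratio was lower in both groups, 3.28, 3.39 and 3.27 in WT and 3.66, 3.58 and 3.6 in cKO, also with no overlap (exact two-sided permutation p = 0.1).

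In mouse LK cells no member rose and 9 of the 31 that passed the filter fell in cKO: 2 rRNAs, 3 mRNAs and 4 tRNAs. Over all mouse genes tested, 36.5% were called, 20.7% higher and 15.8% lower. In 15 of the 31 every cKO library lay below every WT library, as in 21.4% of all genes tested. At an unadjusted p under 0.05 in edgeR the number of members higher was also 0, and DESeq2 called 0 higher and 7 lower. The 13 mRNAs had a median log2 fold change of −0.03, beside 0.00 over all 14918 genes tested. With total counts in place of TMM factors, which moves the median of all genes by 0.07, 4 of the 9 remained called: mt-Rnr1, mt-Nd3, mt-Tc and mt-Tl2. The split of all mouse calls then went from 56.7% to 68.8% higher.

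Both mouse rRNAs fell. mt-Rnr1 (ENSMUSG00000064337; GRCm38 MT:70-1024, plus strand), of the small ribosomal subunit, had 327, 329 and 363 CPM in WT and 252, 288 and 263 in cKO (log2 fold change −0.34, SE 0.064, adjusted p 0.00524), so every cKO library was below every WT library. mt-Rnr2 (ENSMUSG00000064339; MT:1094-2675, plus strand), of the large subunit, had 1071, 1115 and 1188 CPM in WT and 920.4, 1032 and 946 in cKO (log2 fold change −0.22, SE 0.057, adjusted p 0.0221). Its groups also stayed apart, but the call of mouse mt-Rnr2 was lost without WT replicate 2 (adjusted p 0.0623), cKO replicate 1 (0.066) or cKO replicate 3 (0.0883), in edgeR's test.

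Of the 7 complex I mRNAs, 3 fell. mt-Nd1 (ENSMUSG00000064341; MT:2751-3707, plus strand) had 2596, 2555 and 2667 CPM in WT and 2122, 2307 and 2248 in cKO (log2 fold change −0.23, SE 0.043, adjusted p 0.00559). mt-Nd2 (ENSMUSG00000064345; MT:3914-4951, plus strand) had 1388, 1374 and 1454 CPM in WT and 1151, 1260.0 and 1224 in cKO (log2 fold change −0.21, SE 0.045, adjusted p 0.00933). For both, the highest cKO library lay under the lowest WT library. mt-Nd3 had 30.5, 32.3 and 34.7 CPM in WT and 21.2, 25.1 and 25.2 in cKO (log2 fold change −0.45, SE 0.09, adjusted p 0.00776), from 488 to 748 counts per library, and it is the gene whose opening bases are shown beside its nuclear copy above. mt-Nd4l had 5.91, 4.86 and 5.01 CPM in WT and 4.26, 4.25 and 3.94 in cKO, which was not called (log2 fold change −0.34, SE 0.12, adjusted p 0.0617), but with the counts of its copy Gm10222 added it was (adjusted p 0.0365), the only call of a member that adding the copies changed. mt-Nd4 (−0.01), mt-Nd5 (−0.03) and mt-Nd6 (−0.04) were not called, and their sign turned with total-count scaling.

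Mouse complexes III to V showed no called mRNA. mt-Co1 (ENSMUSG00000064351, MT:5328-6872, plus strand), with the most counts per length of the mouse mRNAs at 4828 ± 162 CPM per 1000 bases (SD, n = 3), had 7314, 7315 and 7749 CPM in WT and 7517, 8275 and 7742 in cKO (log2 fold change 0.07, SE 0.05, adjusted p 0.284). That rank is uncertain, since mt-Co2, mt-Co3 and mt-Atp6 are nearly empty beside their nuclear copies. mt-Cytb (ENSMUSG00000064370; MT:14145-15288, plus strand) had 2965, 2914 and 3193 CPM in WT and 3058, 3309.9 and 3145 in cKO (log2 fold change 0.07, SE 0.05, adjusted p 0.316). The groups overlapped for both genes. Among the nearly empty genes, the log2 fold change was 0.13 for mt-Co2, −0.15 for mt-Co3, 0.06 for mt-Atp6 and 0.49 for mt-Atp8, with SE from 0.083 to 0.354.

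The mouse changes differed along the mitochondrial DNA among 8 rRNAs and mRNAs, with mt-Atp8 and the genes with a near-identical nuclear copy over most of their length left out. No annotated copy was found for mt-Atp8 (log2 fold change 0.49), which lies in the nearly empty stretch with 8 to 22 counts. The copies of its neighbours mt-Co2 and mt-Atp6 lie next to each other, at chr1:24614885-24615565 and chr1:24613974-24614651. Nuclear DNA between annotated transcripts was not searched, so a copy of mt-Atp8 there would have been missed. The 4 that lie together after the start of the heavy-strand transcript, mt-Rnr1, mt-Rnr2, mt-Nd1 and mt-Nd2, had log2 fold changes of −0.34 to −0.21. The 4 farther on, mt-Co1, mt-Nd5, mt-Nd6 (on the other strand) and mt-Cytb, had −0.04 to 0.07. Pearson's r of start position and log2 fold change was 0.79 over these 8 genes and 0.29 over all 15 rRNAs and mRNAs. It was 0.50 over the same 8 and 0.50 over all 15 in human. Genes of a strand share a precursor RNA and all share the libraries, so these are descriptions. Within single libraries, mt-Cytb had 0.955, 0.954 and 1 counts per base for each of mt-Nd1 in WT and 1.21, 1.2 and 1.17 in cKO, with no overlap (exact two-sided permutation p = 0.1). The human ratio of CYTB to ND1 was 1.28, 1.22 and 1.27 in shNC and 1.37, 1.29 and 1.4 in shDDX21, also with no overlap (exact two-sided permutation p = 0.1).

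Scaling each library to its own 13 mRNAs, chosen after seeing the data, gave changes relative to their sum. That sum holds the mRNAs themselves, so lower values of some bring higher values of others. In mouse, mt-Co1 (0.08) and mt-Cytb (0.08) were then called higher and 9 members lower, where this scaling called 20.2% of all genes higher and 11.5% lower. On the TMM scale these 2 mRNAs were not called (edgeR adjusted p 0.284 and 0.316), so their calls here are not separate evidence of a rise. mt-Nd1 stood at −0.22, mt-Nd2 at −0.21, mt-Rnr1 at −0.34 and mt-Rnr2 at −0.21 on this scale (log2, adjusted p in edgeR from 0.000559 to 0.0022). In human, 8 members were higher and 6 lower, against 6.58% and 56.9% of all genes. RNR1 stood at −0.36 (adjusted p 2.72e-37), ATP6 at −0.13, ND2 at −0.12 and COX2 at −0.07, while ND3 stood at 0.20, ND4L at 0.18, ATP8 at 0.13, RNR2 at 0.08 and CYTB at 0.08. mt-Co1 took 41, 41.2 and 41.2% of the 13 mRNAs' counts in WT and 43.6, 43.8 and 43.2% in cKO, with no overlap (exact two-sided permutation p = 0.1). Human COX1 took 25.69, 25.47 and 25.26% in shNC and 25.92, 25.74 and 26.17% in shDDX21, also with no overlap (exact two-sided permutation p = 0.1). The mouse genes from mt-Co2 to mt-Nd4l are nearly empty and uncertain, so the mouse and human shares are not comparable.

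Mitochondrial tRNAs made up few counts, 1611 to 2115 per mouse library and 3839 to 6847 per human library, and 16 mouse and 15 human genes of 22 passed the filter. The sequences of the 4 mouse tRNAs that fell, and of mt-Tp, the most abundant mouse tRNA, are printed with the anticodon in capitals, since the tRNA results turn on these 5 genes, which carry different amino acids: mt-Tc cysteine, mt-Tl2 leucine, mt-Tg glycine, mt-Tw tryptophan and mt-Tp proline. They lie at MT:5192-5257 (minus strand), MT:11671-11741, MT:9391-9458 and MT:4950-5016 (plus strand) and MT:15356-15422 (minus strand). As the strand setting is not given, counts of minus-strand tRNAs in both species may hold reads from the other strand.
mt-Tc: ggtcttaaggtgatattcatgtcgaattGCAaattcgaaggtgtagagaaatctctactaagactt
mt-Tl2: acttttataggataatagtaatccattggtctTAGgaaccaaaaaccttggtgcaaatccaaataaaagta
mt-Tg: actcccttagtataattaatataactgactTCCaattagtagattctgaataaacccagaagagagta
mt-Tw: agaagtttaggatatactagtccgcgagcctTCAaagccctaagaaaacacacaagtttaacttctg
mt-Tp: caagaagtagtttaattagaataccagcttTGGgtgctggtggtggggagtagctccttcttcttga

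mt-Tc had 6.99, 6.27 and 7.55 CPM in WT and 4.22, 4.33 and 3.89 in cKO (log2 fold change −0.74, SE 0.114, adjusted p 0.00227), and mt-Tl2 had 9.9, 9.09 and 10.8 CPM in WT and 5.96, 6.68 and 6.16 in cKO (log2 fold change −0.66, SE 0.105, adjusted p 0.00252). For both, all cKO libraries were below all WT libraries. mt-Tg (log2 fold change −0.58, SE 0.172, adjusted p 0.0347) had 33 to 65 counts per library and lost its call in 9 of 16 alternatives. It lies between mt-Co3 and mt-Nd3, whose nuclear copies lie near each other on chromosome 1, so its values share their uncertainty. mt-Tw (log2 fold change −0.38, SE 0.107, adjusted p 0.0274) had 82 to 114 and lost it in 12 of 16, including each of the 6 that leave out a library. mt-Tp had 33.2, 32.4 and 34.5 CPM in WT and 31, 33.3 and 33.2 in cKO, which was not called (log2 fold change −0.04, SE 0.061, adjusted p 0.67). The other 11 that passed had log2 fold changes of −0.75 (mt-Tr) to 0.17 (mt-Tt), 10 of them negative, and none was called.

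In human cells 8 tRNAs rose and 1 fell. TN, TC and TY (asparagine, cysteine and tyrosine) lie together on the minus strand and had the largest increases. TC had 91, 90.2 and 98.6 CPM in shNC and 150.1, 159 and 125 in shDDX21 (log2 fold change 0.63, SE 0.043, adjusted p 1.65e-21). TN had 23.6, 25.8 and 22.7 CPM in shNC and 38.7, 42.3 and 31.8 in shDDX21 (log2 fold change 0.65, SE 0.069, adjusted p 5.27e-13), and TY rose by 0.64. In all 3 the third shDDX21 library was the lowest of its group and still above the controls. TL1, the leucine tRNA next to RNR2, rose by 0.42 and TP by 0.20. TR, TH and TG were also called (adjusted p 0.0104 to 0.0439 in edgeR), but TR lost the call in 4, TH in 7 and TG in 9 of 16 alternatives, and TP in 1, the gene-length curve. The tRNA that fell was TV (valine), which lies between the rRNA genes, with 4.85, 4.55 and 5.05 CPM in shNC and 2.4, 4.14 and 3.12 in shDDX21 (log2 fold change −0.60, SE 0.171, adjusted p 0.00217). Its call was lost without shDDX21 replicate 1 (adjusted p 0.0568). The other 6 that passed were not called, from −0.18 (TS1) to 0.50 (TT).

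**Figure D4:**
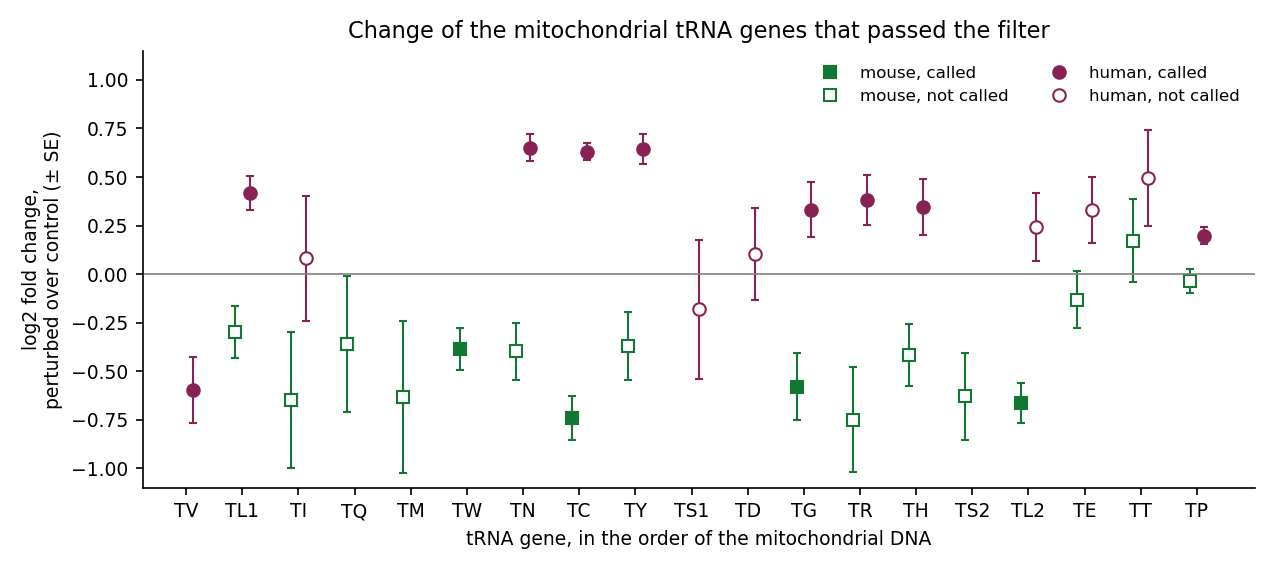
log2 fold change (± SE, edgeR) of each mitochondrial tRNA gene that passed the filter in mouse (squares) or human (circles), in gene order; filled symbols are called. Of the called tRNAs, the 4 mouse ones lie below 0 and the 9 human ones above it except TV at −0.60.

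The human effect lay above the mouse effect for most members. In an edgeR fit of all 12 libraries with a term for the difference between the experiments, 21 of the 27 members tested in both species differed (adjusted p under 0.05), each with the human change above the mouse change: 10 of 13 mRNAs, both rRNAs and 9 of 12 tRNAs. Among the 10285 genes matched by symbol, 20.4% differed in that direction and 56.3% in either. This fit takes 1 spread per gene for both experiments, although the common coefficient of variation was 10.5% in mouse and 2.23% in human. It may therefore understate the mouse spread. For mt-Co3 with COX3 its SE was 0.063, below the 0.083 of the mouse fit alone. The same held for ND4L (0.110 against 0.120), COX2 (0.090 against 0.115) and ATP6 (0.119 against 0.143), while for the other members it was above. The mouse change minus the human change was −0.60 for ND1 (SE 0.053, adjusted p 1.9e-06), −0.70 for RNR2 (SE 0.065, adjusted p 2.88e-06) and −1.37 for TC (SE 0.149, adjusted p 1.09e-05). COX2, ATP6 and ATP8, of which mouse has few counts, were the mRNAs not called. Species, cell source, kind and length of perturbation differ together between the experiments and cannot be told apart.

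Of 12 nuclear genes listed for transcription of the mitochondrial DNA, 2 were higher and 6 lower in human (median log2 fold change −0.09), and 0 were higher and 3 lower in mouse (−0.08). These counts, and those of the lists that follow, stand beside 25.3% higher and 27.4% lower of all human genes tested (median 0.01) and 20.7% higher and 15.8% lower in mouse (median 0.00). TFAM, which packages this DNA and starts its transcription, had 96.3 ± 1.54 CPM in shNC and 46.5 ± 2.28 in shDDX21 (SD, n = 3, log2 fold change −1.05, edgeR adjusted p 3.39e-34). The helicase TWNK stood at −0.45 and the RNA polymerase POLRMT at −0.31 (edgeR adjusted p 4.03e-12 and 1.61e-09). The 3 that fell in mouse were Twnk (−0.29), Mrpl12 (−0.68) and Mtres1 (−0.23). Of 19 replication and packaging genes, 5 were higher (26.3%) and 9 lower (47.4%) in human and 4 were higher and 4 lower (21.1% each) in mouse, so the shares higher were close to those over all genes. TFAM and TWNK stand on both lists, so their changes are counted in each. DNA2 (−0.61) fell and RRM2B (0.26), a ribonucleotide reductase subunit, rose in human, and Slc25a36 (0.91), a nucleotide carrier, and Tk2 (0.38), a mitochondrial thymidine kinase, rose in mouse. Of 11 biogenesis regulators tested, 1 was higher and 8 lower (72.7%) in human, with MYC at −1.17, PPRC1 at −0.70 and ESRRA at 0.57. In mouse 1 was higher and 6 lower (54.5%), with Gabpb1 at 0.44, Nrf1 at −0.44 and Pprc1 at −0.40.

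Of 30 genes that process and modify mitochondrial RNA, 4 were higher (13.3%) and 12 lower (40.0%) in human and 1 was higher and 8 lower (26.7%) in mouse. TFB1M stands on this list and on the transcription list. The RNA methylase NSUN2 (−0.78) and ELAC2 (−0.31), which cuts tRNAs at the 3′ end, fell in human, and HSD17B10 (0.76), a subunit of the enzyme that cuts tRNAs at the 5′ end, rose. Trmu (−0.32), Ptcd2 (−0.23) and Trub2 (−0.23) fell in mouse. Of 19 stability, polyadenylation and decay genes, 4 were higher and 10 lower (52.6%) in human, where TBRG4 (−0.37), DHX30 (−0.27) and FASTKD2 (−0.32) fell, and 1 was higher (Rexo2, 0.22) and 1 lower (Tbrg4, −0.53) in mouse. Of the translation factors, 4 of 23 were higher and 7 lower in human (30.4%, near the share over all genes), with the membrane insertase OXA1L at 0.49, NOA1 at 0.48 and GUF1 at −0.39, and 2 of 24 were higher and 6 lower in mouse, with Tufm at −0.18, Ddx28 at −0.34 and Gatc at −0.32.

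The nuclear partners of the human mitochondrial subunits are given by complex, beside the same shares of all genes, and differences between complexes were not tested. Human nuclear genes had a median of 0.15 under 500 bases, 0.19 from 500 to under 1000 and 0.11 from 1000 to under 2000. The subunits were not matched to genes of like length, so the part of length was not tested. For complex IV, 10 of 11 nuclear subunits were higher (90.9%) and 0 lower (median log2 fold change 0.30), and the 3 smallest p belonged to NDUFA4 (0.52), COX7C (0.45) and COX4I1 (0.30). For complex III, 5 of 9 were higher (55.6%) and 0 lower (median 0.09), with UQCRB at 0.53, UQCRH at 0.35 and UQCRQ at 0.27. For complex I, 13 of 37 were higher (35.1%) and 2 lower (5.41%, median 0.11), with NDUFA1 at 0.58, NDUFS5 at 0.34 and NDUFV1 at 0.21. For ATP synthase, 7 of 17 were higher (41.2%), such as ATP5MC2 (0.36), and 4 lower (23.5%), such as ATP5PB (−0.40) and ATP5F1C (−0.41). Complex II has no mitochondrial subunit, and of its 4 genes 0 were higher and 1, SDHD (−0.53), lower. In mouse, where 36.5% of all genes tested were called, the calls were 2 higher (Ndufs4 0.30, Ndufa1 0.32) and 2 lower of 37 for complex I, with Ndufs3 at −0.20, 1 lower of 9 for complex III (Cyc1, −0.18), 1 higher of 11 for complex IV (Ndufa4, 0.29), 0 of 17 for ATP synthase and 1 lower of 4 for complex II (Sdhd, −0.46).

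**Figure D5:**
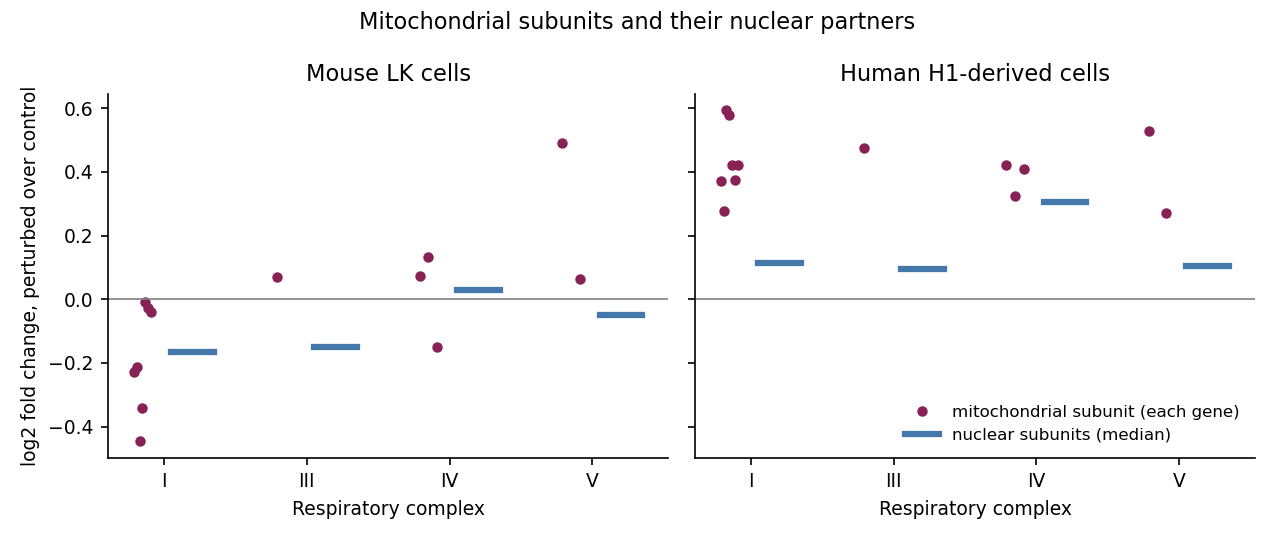
log2 fold change of each mitochondrial subunit (points) and the median of the nuclear subunits (bars) of respiratory complexes I, III and IV and of ATP synthase (V), mouse left, human right. In human all points lie above 0 and the bars reach 0.30 for complex IV; in mouse the bars lie between −0.17 and 0.03.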

How the data were processed

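Per the submitters' processing notes, which name STAR, featureCounts and DESeq2 with the builds mm10 and hg38, the authors deposited 2 tables of raw counts, whole numbers of reads per gene with positions and exon lengths; per the labels' protocols, libraries were made by mRNA enrichment. Strand setting and multimapping are not given in the sources used here. The deposited normalized tables (unit: signal, and a log2 of each signal over the control mean) served for symbols only. Mouse names come from them and GENCODE M21. The human table names the 13 mRNAs; rRNAs and tRNAs were named by their place among these in the mouse order, since all 37 lay on the same strands and tRNA lengths differed by at most 5 bases.

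Each whole table was tested with edgeR 4.0.16 in R 4.3.3 (filterByExpr, TMM, two-sided quasi-likelihood test without covariates, Benjamini-Hochberg over all genes tested); SE is the size of the log2 fold change divided by the root of F. DESeq2 1.42.0 was an alternative. Single values had exact permutation tests. Copies were sought with blastn 2.17.0 among 141730 nuclear transcripts. The steps were tested on simulated data. Members, lists and tests were chosen with earlier results of these data known. Named genes are all rRNAs and mRNAs, tRNAs that passed the filter, the 3 smallest p of each list, and the 5 human nuclear copies with most counts. Replicate numbers were not used to pair the libraries in the main test, and the labels do not say whether they do. Counts carry no molecular identifiers, so precision is that of counting and of 3 libraries a group.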

Additional observations from a re-analysis of the deposited data

Results flagged for a closer look

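The effect of losing DDX21 differed between the experiments for 21 members, by the interaction term of edgeR's fit of all 12 libraries. That fit takes 1 spread per gene for both experiments and may understate the larger mouse spread. Values are the mouse log2 change minus the human log2 change, so a negative value means that the human change was the higher one, as it was in every one of these 21. For the rRNAs it was −0.38 for RNR1 and −0.70 for RNR2. For complex I it was −0.60 for ND1, −0.49 for ND2, −1.04 for ND3, −0.92 for ND4L, −0.43 for ND4, −0.41 for ND5 and −0.46 for ND6. For complexes III and IV it was −0.41 for CYTB, −0.35 for CO1 and −0.56 for CO3, where CO1 and CO3 are mt-Co1 with COX1 and mt-Co3 with COX3. For the tRNAs it was −0.71 for TL1, −1.04 for TN, −1.37 for TC, −1.01 for TY, −0.91 for TG, −1.13 for TR, −0.75 for TH, −0.90 for TL2 and −0.23 for TP. Values of ND3, ND4L and CO3 rest on mouse genes with a near-identical nuclear copy and few counts. Those of TG and TR rest on mouse tRNA genes that lie between such genes.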

How the results depend on the processing

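The number of mouse members called was 9, and 4 with total counts, 6 with upper-quartile factors and 6 to 9 when 1 library was left out. The 23 human calls ranged from 20 to 25 and the 21 differences between the experiments from 20 to 23 when 1 library was left out. All 13 human mRNAs were called higher in every alternative that keeps the scale of the whole library, and their median of 0.42 was 0.39 with total counts, 0.49 with upper-quartile factors, 0.29 with the gene-length curve and 0.39 to 0.43 with a library left out. The mouse mRNA median was −0.06 to 0.02 with a library left out. Upper-quartile factors moved the human split of calls from 48.0% to 57.4% higher. The mouse difference in mitochondrial share, 0.0521 percentage points, was −0.036 on TMM-scaled library sizes and −0.00866 to 0.111 with a library left out, below 0 only without cKO replicate 2; the human one was 2.59 to 2.69. DESeq2 called 7 mouse and 20 human members.

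Some uncalled members turned sign. The change of mouse mt-Nd4 was 0.00706 with at least 10 counts in every library, 0.00996 with the gene-length curve, 0.0574 with total counts and 0.0181 with upper-quartile factors. With total counts, mt-Nd5 was 0.0366, mt-Nd6 0.0242 and mt-Tp 0.0282. With the gene-length curve, mt-Tp was 0.0433, RNR1 −0.11, human TI −0.0666 and human TD −0.0468. With a library left out, mt-Nd4 ranged from −0.0281 to 0.0292, mt-Nd5 from −0.0569 to 0.0228, mt-Nd6 from −0.0759 to 0.0102, mouse mt-Tp from −0.0631 to 0.00802, mt-Atp6 from −0.0563 to 0.21, human TI from −0.0428 to 0.28 and human TD from −0.0183 to 0.23. The cause was not tested.

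With replicate number as a block, 7 mouse members were called (mt-Tg and mt-Tw lost theirs), 23 human ones, and 20 differences. Correlations of same-numbered libraries' deviations were 0.316, −0.177 and 0.0131 in mouse and within 0.0138 of 0 in human. For differently numbered mouse libraries they reached −0.419 (WT 3 with cKO 1) and 0.408 (WT 3 with cKO 2). With 3 libraries a group, these values cannot show whether the numbers pair the libraries. Few counts limit the precision of the tRNAs and of the mouse genes from mt-Co2 to mt-Nd4l: in 6 mouse and 7 human tRNAs too few reads were counted for a test, with at most 10 and 18 counts in any library.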

Other observations

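The human table names 15 nuclear copies of mitochondrial genes. MTATP6P1, a copy of ATP6 on chromosome 1, had counts of 1575, 1385 and 1550 in shNC and 2917, 2102 and 2256 in shDDX21 (log2 fold change 0.63, edgeR adjusted p 7.81e-23), which is 1.96% of the counts of ATP6. MTCO1P12, on the same chromosome, had counts of 554, 533 and 633 in shNC and 1146, 796 and 883 in shDDX21 (log2 fold change 0.66, edgeR adjusted p 1.76e-15), and MTND2P28, MTCO3P12 and MTND4P12 had 974, 837 and 744 counts over the 6 libraries. Of the 15 copies, 9 were called higher and 0 lower, where 25.3% and 27.4% of all human genes tested were. Reads of a copy and of its mitochondrial gene may not be separable, and adding the copies' counts to the genes changed no call of a human member. In mouse, Gm28661 had 142 to 237 counts per library and mt-Co2 131 to 188, so the annotated copy held more counts than the gene in each of the 6 libraries; the same held for Gm10925 (211 to 272) and mt-Atp6 (122 to 184).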
